A study of Danio rerio with 15 samples.

Results

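The collagen genes of the zebrafish were followed through 15 RNA sequencing libraries, 8 from normal brain and 7 from brain tumor. A gene was counted as a collagen where its symbol, whatever its capitals, began with col, went on with digits and then had the letter a. That rule uses names and no measured value, and it found 54 of the 22513 genes. They cover 22 collagen types, grouped here into 9 classes by the kind of structure the protein builds. The symbols stand as in the gene name table, which writes some in capitals and some in small letters, and 10 members share a symbol with another and are given with their Ensembl ID. The normal libraries are of whole zebrafish brain. The tumor libraries are of dissected brain tumors that the series title calls NRAS-driven CNS-PNET, a tumor of primitive neuroectodermal cells in the central nervous system driven by the RAS family oncogene NRAS. The promoter, the NRAS allele, the genetic background of either group, the age of the fish and whether each library came from a separate fish were not in the sources used here, so p-values measure the spread between libraries. Libraries are called by the number in their title, such as normal brain 4 or brain tumor 14.

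Collagen chains wind around each other into helical molecules that are secreted and assembled outside the cell. The fibrillar types build the tensile fibers of skin, bone, tendon and cartilage, type IV builds the sheet of every basement membrane, and the remaining types coat fibrils, link them to cells or span the cell membrane. In healthy brain the tissue between neurons holds little fibrillar collagen, which sits mainly in the meninges and around larger vessels, whereas type IV lines the whole vascular bed.

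The libraries held 13605588 to 21347976 counts each. A count of 3, the limit a count of 0 allows, thus stood at 0.141 to 0.220 CPM (counts scaled to the library total). The CPM of genes and marker sums given below is scaled by the TMM factor of each library as well. Neuron markers summed to 11573 to 13535 CPM in normal brain and to 586 to 2967 CPM in tumors. Marker lists of other tissues also had high sums in some libraries, and which cells made these transcripts was not tested. Liver markers summed to 14772 CPM in normal brain 1 and to at most 436 CPM elsewhere, and photoreceptor markers reached 311 CPM in normal brain 2. Skin markers summed to 5070 CPM in normal brain 4, 2633 in brain tumor 12 and 1416 in brain tumor 14, against 267 to 690.2 in the remaining libraries. Skeletal muscle markers summed to 1156, 1163, 1491 and 3353 CPM in brain tumors 12, 5, 6 and 14, to 253 to 637 in normal brain and to 58.3 to 161 in brain tumors 7, 8 and 13. Their part in the collagen results was not tested, and values without these libraries are given where they change a call.

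Collagens did not move as one group. Of the fibrillar genes, the 3 type I chains, COL5A1, COL5A2, col5a3a, COL11A2 and col11a1b were higher in tumors. The other 7, among them COL11A1 and both COL2A1 copies, did not pass the test. The common basement membrane chains COL4A1 and COL4A2 were higher. So were 3 genes of type VI, the type IX genes COL9A1 and col9a3, and 1 copy each of types VIII, X, XII and XVIII. Types VII, XIV, XIX and 1 member of type XXVIII were lower. Of the 54 members 47 passed the filter on low counts and were tested with edgeR's quasi-likelihood test, with p-values adjusted over all 19260 genes tested. Of these 47, 19 were higher, 6 were lower and 22 did not pass the adjusted threshold of 0.05. The 25 called members are 53.2% of those tested, against 76.9% of all genes. The share higher was 40.4%, against 43.5% of all genes, and the share lower was 12.8%, against 33.4%. All 25 called members changed by at least 2-fold. The median log2 fold change, tumor against normal brain, was 1.06 for the tested collagens and 0.21 for all tested genes, and with median-ratio scaling these were 0.85 and 0.02.

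**Figure D1:**
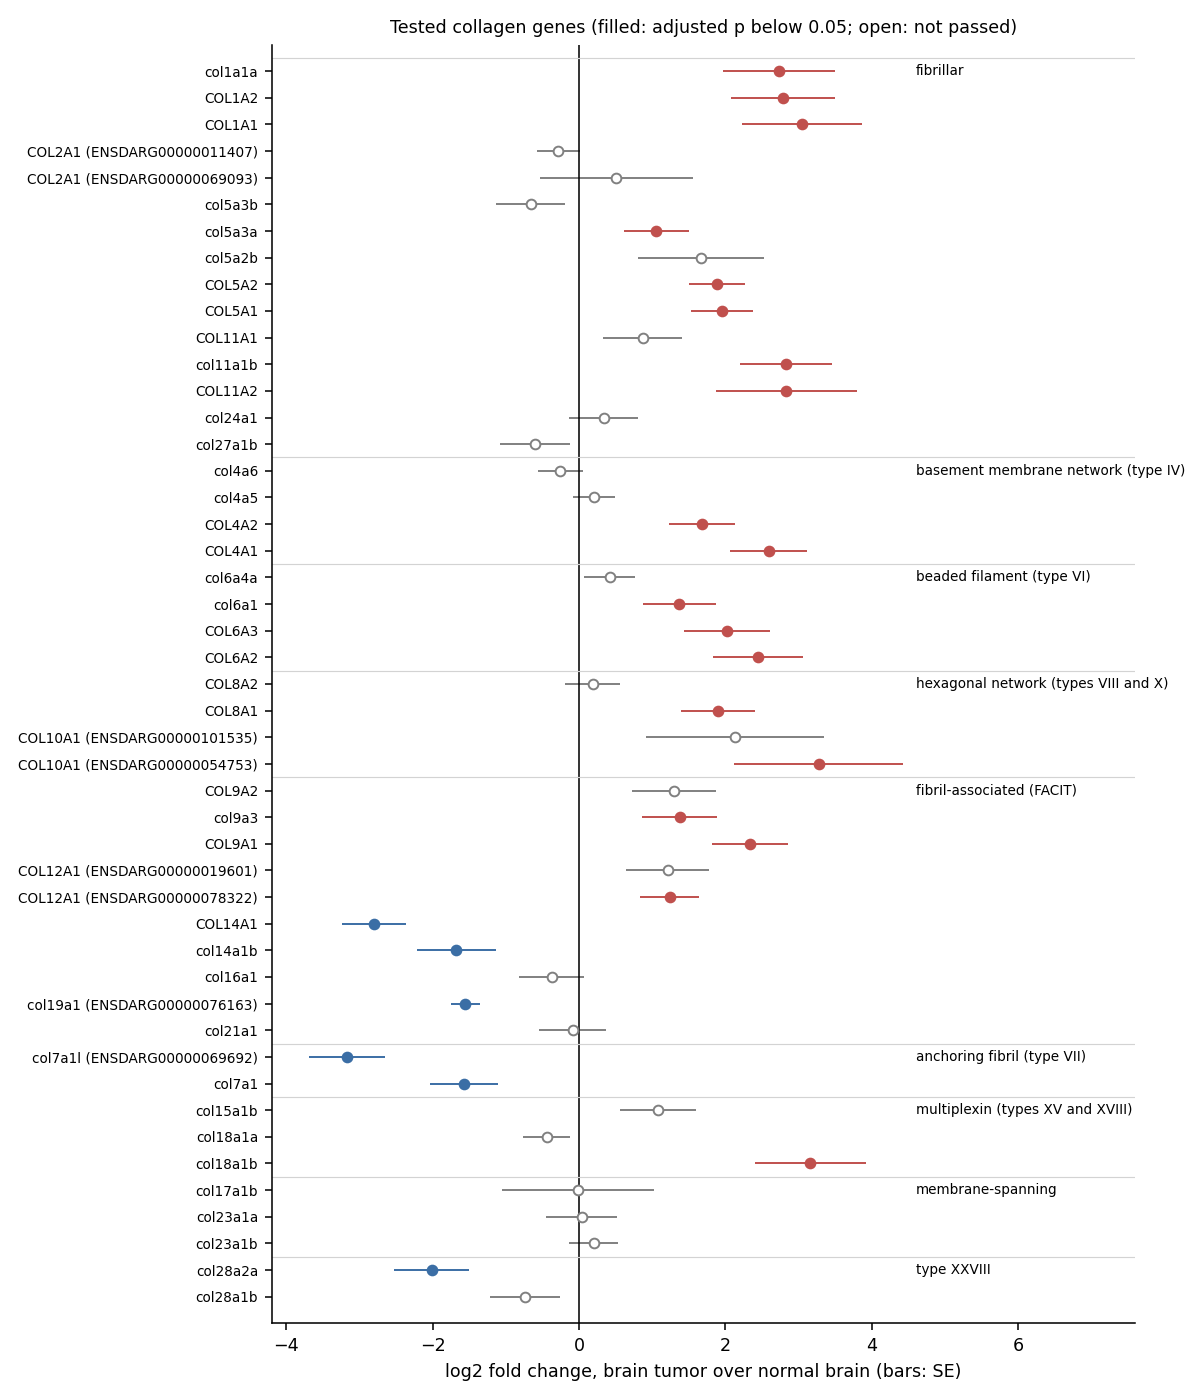
Log2 fold change of brain tumor over normal brain for the 47 tested collagen genes, grouped by class, with SE bars and with filled points for genes below the adjusted threshold. The type I chains lie near 3, COL14A1 and col7a1l (ENSDARG00000069692) near -3, and 22 open points did not pass.

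The called counts depended on the libraries. Each subset also held fewer libraries, and the share of all genes called in it is not given here. These shifts therefore cannot be called particular to collagens. With libraries numbered 1 to 8 alone, 2 members were higher and 10 lower, and with libraries 9 to 15 alone, 21 were higher and 3 lower. Without normal brain 4 and brain tumors 5, 6, 12 and 14, the libraries with the highest sums of skin or muscle markers, 9 were higher and 17 lower. That setting was chosen after the marker values were seen. It leaves 7 normal libraries and 3 tumors, called the reduced set from here on. The tumors left out were also those with the most collagen, with a summed FPKM (counts scaled to library total and gene length) of 258 to 900.0. The 3 kept had 78.4 to 196. Normal brain 4 likewise had the highest sum of the normal libraries. Calls in the reduced set are therefore not independent of the collagen level, and they cannot separate it from the marker sums. The 9 were the 3 type I chains, COL4A1, COL5A1, COL5A2, COL6A2, COL9A1 and col11a1b. The 2 higher members of libraries 1 to 8 were col9a3 and col24a1, and none of the other members called higher over all libraries passed there. Of the 6 called lower, col7a1, col14a1b and col28a2a did not pass with libraries 9 to 15 alone. Without brain tumor 14 alone, 15 were higher and 11 lower.

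Within each group collagens varied more than most genes. The coefficient of variation over the 7 tumors had a median of 83.1% for the tested collagens and 34.0% for all tested genes. Over the 8 normal libraries it was 41.0% and 13.1%, and without normal brain 1 and 4 it was 23.6% and 11.6%. A few libraries set the extremes. Brain tumor 14 was the highest tumor for 41 of the 54 members, brain tumor 13 the lowest for 22 and brain tumor 7 the lowest for 16. Among normal libraries, normal brain 4 was the highest for 29 members and normal brain 1 for 9. For 40 members at least 1 tumor lay above every normal library. No tested member had all 7 tumors above every normal library, and 3 of the 47, or 6.38%, had all 7 below, against 51.9% of all genes whose groups did not overlap in either direction.

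Levels between genes are compared per length, as the authors' FPKM. It scales counts to the library total and to gene length, without the TMM factor used for CPM and for the fold changes. The order of libraries can thus differ between FPKM and the tested scale, most for brain tumors 7 and 13, with factors of 0.856 and 0.824. The summed FPKM of the 54 members was 64.9 to 122 in 7 normal libraries and 268 in normal brain 4. In tumors it was 78.4 in brain tumor 8, 85.7 in 7, 196 in 13, 258 in 6, 444 in 12, 561 in 5 and 900.0 in 14. Brain tumors 7 and 8 lay inside the range of those 7 normal libraries, brain tumors 13 and 6 between it and normal brain 4, and brain tumors 12, 5 and 14 above every normal library. The most abundant member in both groups was col1a1a, by the group mean. In normal brain that mean, 11.02 FPKM, was raised by normal brain 4, at 52.1. The normal median of col1a1a was 3.96 FPKM, below the 6.98 of COL14A1. Mean FPKM reached 10 for 8 members in tumors and for 1 in normal brain, and 18 members stayed under 1 in both.

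**Figure D2:**
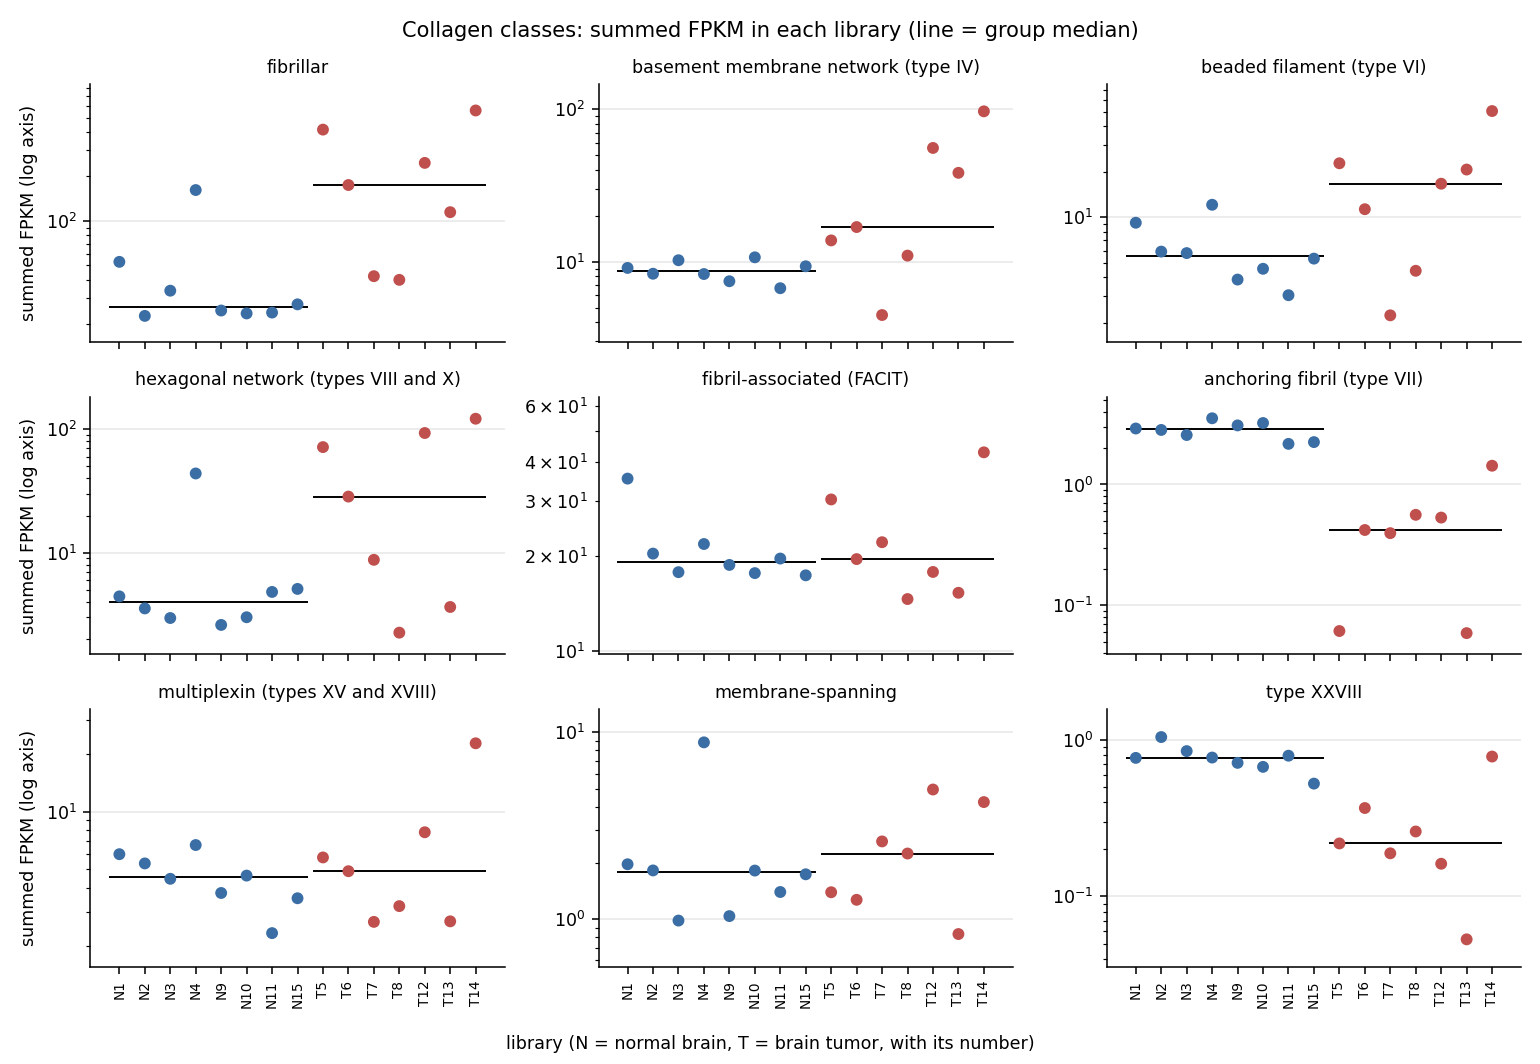
Summed FPKM of each collagen class in every library on log axes, with blue points for normal brain, red points for brain tumor and a line at each group median. Fibrillar and type IV sums reach their highest values in brain tumor 14, and type VII lies below every normal library in all 7 tumors.

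Type I is the main fibril of skin and bone. Zebrafish carry 3 type I genes in the set, col1a1a (ENSDARG00000012405) and COL1A1 (ENSDARG00000035809), both named for the alpha-1 chain, and COL1A2 (ENSDARG00000020007), the alpha-2 chain. Their summed FPKM was 8.82 in normal brain 2, 8.98 in 9, 9.39 in 10, 11.2 in 11, 12.99 in 15, 17.4 in 1, 19.02 in 3 and 135 in 4. It was 23.4 in brain tumor 8, 30.8 in 7, 92.2 in 13, 140.4 in 6, 211 in 12, 361 in 5 and 463 in 14. All 7 tumors were above every normal library other than normal brain 4, and 4 were above that one as well.

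Each of the 3 chains was higher in tumors. In normal brain col1a1a ran from 3.02 to 52.1 FPKM with a median of 3.96 and in tumors from 9.75 to 183 FPKM with a median of 50.9. COL1A2 ran from 2.96 to 40.1 FPKM with a median of 3.71 in normal brain and from 9.29 to 130.0 FPKM with a median of 42.5 in tumors. COL1A1 ran from 2.52 to 42.5 FPKM with a median of 2.89 in normal brain and from 4.35 to 149.5 FPKM with a median of 47.03 in tumors. The highest normal value of each was normal brain 4, and the highest tumor value brain tumor 14. The log2 fold change was 3.05 ± 0.82 (SE, adjusted p = 0.00302) for COL1A1, 2.78 ± 0.71 (SE, adjusted p = 0.00205) for COL1A2 and 2.74 ± 0.76 (SE, adjusted p = 0.00391) for col1a1a with edgeR. In the reduced set these were 2.58 (adjusted p = 0.000737), 2.197 (adjusted p = 0.000582) and 2.005 (adjusted p = 0.00331). With libraries 1 to 8 alone, which hold normal brain 4, none of the 3 passed, with log2 fold changes of 2.0, 1.71 and 1.501 (adjusted p = 0.188, 0.161 and 0.2204). In bulk tissue, more cells of a type and more RNA per cell cannot be told apart.

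The ratio of COL1A2 to col1a1a FPKM was 0.578 to 1.03 in normal brain and 0.709 to 0.952 in tumors. The ratio of COL1A1 to col1a1a was 0.266 in normal brain 3, 0.316 in normal brain 1 and 0.446 in brain tumor 8, and 0.723 to 1.202 in the other 12 libraries. Normal brain 1 and 3 held 8.18 and 10.3 FPKM of col1a1a, against 3.02 in normal brain 2, while COL1A1 stood at 2.58 and 2.75, against 2.71. The 3 genes took 12.3% to 23.99% of all collagen FPKM in 7 normal libraries, 50.3% in normal brain 4 and 29.8% to 64.4% in tumors.

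**Figure D3:**
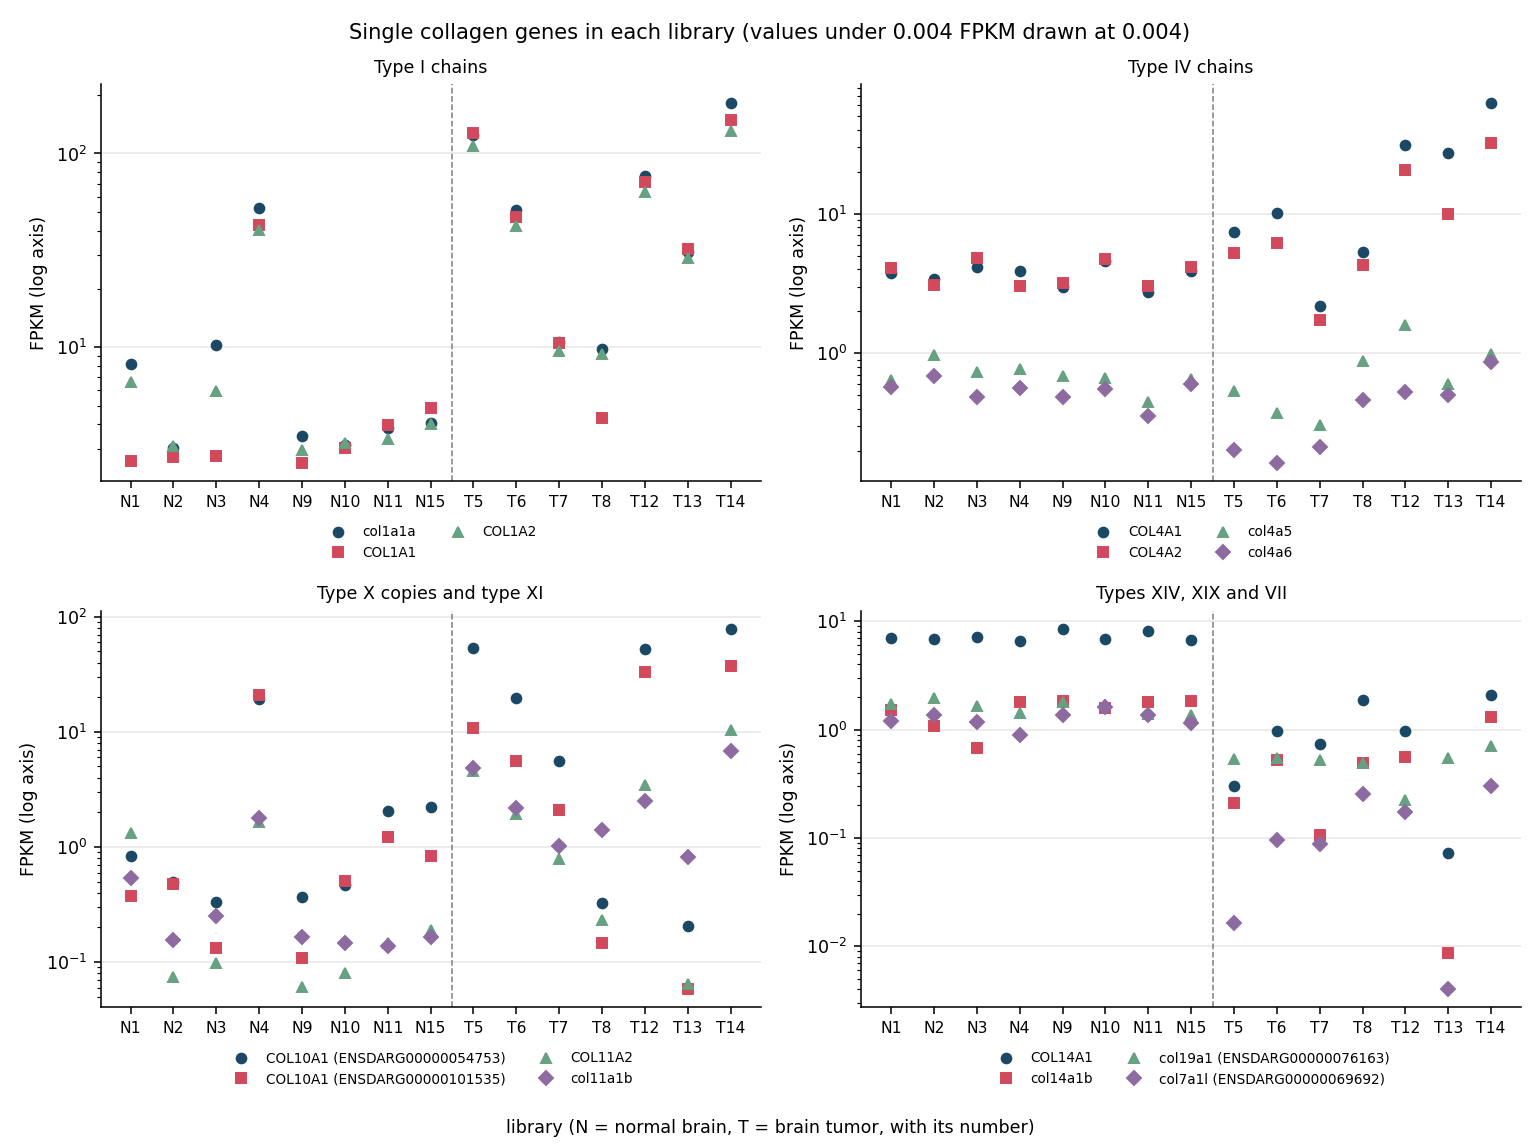
FPKM of single collagen genes in every library on log axes, with normal brain left and brain tumor right of the dashed line. The type I chains of normal brain 4 lie near the tumor medians, COL4A1 and COL4A2 part from each other in brain tumor 13, and COL14A1 and col19a1 (ENSDARG00000076163) lie lower in all 7 tumors than in any normal library.

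Type II is the main fibril of cartilage, and neither of its copies passed the test over all libraries. The COL2A1 copy ENSDARG00000069093 was at 14.9 FPKM in normal brain 1 and 15.3 in brain tumor 14, with 0.217 to 0.728 in the other normal libraries and 0.208 to 2.53 in the other tumors. Its log2 fold change was 0.51 ± 1.05 (SE, adjusted p = 0.668), and without normal brain 1 it passed, at 2.65 (adjusted p = 0.00728). The copy ENSDARG00000011407 was at 3.25 to 6.54 FPKM in normal brain and 1.67 to 8.96 in tumors, with a log2 fold change of -0.28 (adjusted p = 0.3999). For that copy, by FPKM, 5 of 7 tumors lay below every normal library and brain tumor 14 above every one. It passed as lower without brain tumor 14, at -0.77 (adjusted p = 0.00355), with libraries 1 to 8 alone, at -0.85 (adjusted p = 0.0279), and in the reduced set, at -1.01 (adjusted p = 0.00214). The cartilage gene UCMA, picked after its values were seen, was also highest in normal brain 1 and brain tumor 14. It was at 7.46 and 8.99 CPM there, against 0 to 0.747 in the other 13 libraries. The whole cartilage and bone marker list was not highest in these libraries. It summed to 403 CPM in normal brain 1, within the 380.1 to 483 of normal brain, and to 2562 in brain tumor 14, within the 2179 to 4202 of tumors.

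Type V nucleates type I fibrils, and its chains COL5A1 and COL5A2 were higher in tumors. COL5A2 ran from 2.56 to 5.39 FPKM with a median of 2.95 in normal brain and from 1.74 to 17.8 FPKM with a median of 12.4 in tumors, and its log2 fold change was 1.88 ± 0.38 (SE, adjusted p = 0.000318). COL5A1 ran from 1.11 to 3.17 FPKM with a median of 1.44 in normal brain and from 0.997 to 15.5 FPKM with a median of 5.65 in tumors, with a log2 fold change of 1.96 ± 0.43 (SE, adjusted p = 0.000569). For both genes, by FPKM, 5 of 7 tumors lay above every normal library, brain tumor 7 lay below every one, and brain tumor 8 lay inside the normal range. The scarcer copy col5a3a passed narrowly, at 1.06 ± 0.45 (SE, adjusted p = 0.0415), and brain tumor 14 carried its highest value of 3.402 FPKM against 0.138 to 1.28 in the other tumors. Without brain tumor 14 its log2 fold change was 0.302 (adjusted p = 0.406), and it also missed the threshold without brain tumor 12 or any 1 of the 8 normal libraries. Its sign turned in the reduced set, at -0.37 (adjusted p = 0.324). The copies col5a2b and col5a3b did not pass, at 1.67 (adjusted p = 0.08702) and -0.66 (adjusted p = 0.207), and col5a2b was at 3.61 FPKM in normal brain 4 against 0.215 to 0.708 in the other normal libraries. Without normal brain 4 col5a2b passed as higher, at 2.36 (adjusted p = 0.0182), as it did without brain tumor 13, at 1.88 (adjusted p = 0.0402), or 8, at 1.798 (adjusted p = 0.0476). It passed as lower in the reduced set, at -1.49 (adjusted p = 0.0479), and so did col5a3b, at -1.38 (adjusted p = 0.0314).

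Type XI, the fibril nucleator of cartilage, split by gene. The gene col11a1b ran from 0.138 to 1.77 FPKM with a median of 0.166 in normal brain and from 0.818 to 6.79 FPKM with a median of 2.18 in tumors, with a log2 fold change of 2.83 ± 0.63 (SE, adjusted p = 0.000677). COL11A2 ran from 0.0605 to 1.65 FPKM with a median of 0.122 in normal brain and from 0.0647 to 10.4 FPKM with a median of 1.94 in tumors, with a log2 fold change of 2.83 ± 0.96 (SE, adjusted p = 0.0137). Normal brain 4 was the highest normal library for both, and COL11A2 was at only 0.0647 FPKM in brain tumor 13 and 0.234 in brain tumor 8. COL11A2 did not pass without brain tumor 14, at 2.04 (adjusted p = 0.0576), or in the reduced set, at 0.61 (adjusted p = 0.6102). COL11A1 did not pass, at 0.87 (adjusted p = 0.152), and did without normal brain 1, at 1.2 (adjusted p = 0.0427). The fibrillar genes col24a1 and col27a1b, of types XXIV and XXVII, did not pass either, at 0.34 (adjusted p = 0.521) and -0.603 (adjusted p = 0.258). Without brain tumor 14 col27a1b passed as lower, at -1.29 (adjusted p = 0.00949), as it did in the reduced set, at -2.19 (adjusted p = 0.000514). The level of col24a1 was 0.0511 FPKM in brain tumor 13 and 1.43 to 6.08 in the other tumors.

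Type IV builds the basement membrane network, and its common chains COL4A1 (ENSDARG00000055009) and COL4A2 (ENSDARG00000104110) were higher in most tumors. COL4A1 was at 2.76 to 4.61 FPKM in normal brain. In tumors it was 2.19 FPKM in brain tumor 7, 5.29 in 8, 7.36 in 5, 10.1 in 6, 27.1 in 13, 31.2 in 12 and 62.6 in 14. Brain tumor 7 was below every normal library and the other 6 tumors were above every one. The log2 fold change was 2.59 ± 0.53 (SE, adjusted p = 0.000324) with edgeR.

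COL4A2 was at 3.01 to 4.8 FPKM in normal brain. In tumors it was 1.72 FPKM in brain tumor 7, 4.31 in 8, 5.25 in 5, 6.12 in 6, 9.99 in 13, 20.6 in 12 and 31.99 in 14. Its log2 fold change was 1.68 ± 0.45 (SE, adjusted p = 0.00299), with 5 tumors above every normal library. In the reduced set COL4A2 did not pass, at 0.72 (adjusted p = 0.1395), whereas COL4A1 did, at 1.94 (adjusted p = 0.00949). With libraries 1 to 8 alone neither passed, at 0.77 for COL4A1 and 0.28 for COL4A2 (adjusted p = 0.0791 and 0.464). The high values of brain tumors 12, 13 and 14 all fall outside that subset.

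These chains join in the same molecule, and their genes are next to each other in the RefSeq gene table of assembly GRCz12tu. The ratio of COL4A1 to COL4A2 FPKM was 0.868 to 1.29 in normal brain, highest in normal brain 4. In tumors it was 1.23 in brain tumor 8, 1.27 in 7, 1.401 in 5, 1.52 in 12, 1.65 in 6, 1.96 in 14 and 2.71 in 13. All 7 tumors exceeded every normal library but normal brain 4, and 5 exceeded that one too. Endothelial markers summed to 475 to 601 CPM in normal brain and 363 to 574 CPM in tumors, and mural cell markers to 287 to 324 and 104 to 328 CPM. No tumor exceeded every normal library in the first sum, and 1 did in the second. Single genes of these lists went both ways. Of 20 tested endothelial genes 6 were higher and 6 lower, and of 13 mural genes 4 were higher and 5 lower, with NOTCH3 the largest in the mural sum. The shares higher and lower were 30% and 30% for endothelial and 30.8% and 38.5% for mural genes. Of all genes 43.5% were higher and 33.4% lower, so a mixture of directions is not particular to these lists. The part of vessel cells in the type IV result was not tested.

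The other type IV chains are the rarer ones, which in mammals serve the kidney filter and smooth muscle, among other places. The neighbours col4a5 and col4a6 did not pass the test, at 0.205 (adjusted p = 0.521) and -0.26 (adjusted p = 0.455). Levels of col4a5 ran from 0.449 to 0.966 FPKM with a median of 0.673 in normal brain and from 0.307 to 1.59 FPKM with a median of 0.599 in tumors. Levels of col4a6 ran from 0.357 to 0.684 FPKM with a median of 0.554 in normal brain and from 0.162 to 0.863 FPKM with a median of 0.461 in tumors. The direction of col4a5 turned without brain tumor 12, where it was -0.0743. The neighbours col4a3 and COL4A4 did not pass the filter on low counts over all libraries, and both had 1 high library. In the reduced set COL4A4 passed as lower, at -2.95 (adjusted p = 0.0028). With DESeq2 col4a3 passed as higher, at 2.21 (adjusted p = 0.0165), as it did with edgeR without a filter, at 2.41 (adjusted p = 0.0228). In brain tumor 12 col4a3 was at 0.881 FPKM and COL4A4 at 0.813, whereas the other 14 libraries held 0 to 0.259 and 0 to 0.1603.

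Type VI forms beaded filaments that link cells to the matrix around them. COL6A2, COL6A3 and col6a1 were higher in tumors and col6a4a did not pass, at 0.42 (adjusted p = 0.282). COL6A2 ran from 0.332 to 2.98 FPKM with a median of 0.626 in normal brain and from 0.739 to 13.6 FPKM with a median of 4.48 in tumors, with a log2 fold change of 2.45 ± 0.61 (SE, adjusted p = 0.001805). COL6A3 was at 0.536 to 2.19 and 0.334 to 14.9 FPKM, with a log2 fold change of 2.02 ± 0.59 (SE, adjusted p = 0.005102). In brain tumor 14 COL6A3 reached 14.9 FPKM, while no other tumor passed 3.78. The most abundant chain, col6a1, ran from 1.72 to 6.05 FPKM with a median of 3.51 in normal brain and from 1.02 to 20.3 FPKM with a median of 6.93 in tumors, with a log2 fold change of 1.37 ± 0.502 (SE, adjusted p = 0.0206). It did not pass without brain tumor 14, at 0.96 (adjusted p = 0.0889), or without normal brain 11, at 1.18 (adjusted p = 0.05401). Neither COL6A3 nor col6a1 passed in the reduced set, at 0.41 (adjusted p = 0.2597) and 1.03 (adjusted p = 0.184).

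The type VI chains also changed in proportion. The ratio of col6a1 to COL6A2 FPKM was 2.03 in normal brain 4, 2.52 in normal brain 1 and 4.302 to 6.24 in the other 6 normal libraries. In tumors it was 1.38 to 1.81 in 6 libraries and 2.198 in brain tumor 13. These 6 tumors lay below every normal library. In brain tumor 7, whose type VI sum of 2.24 FPKM was below every normal library, the ratio was the lowest of all 15 libraries.

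Type VII forms the anchoring fibrils that fasten skin to the tissue below, and its summed FPKM was lower in all 7 tumors than in any normal library. The most abundant copies by FPKM were col7a1l (ENSDARG00000069692) and col7a1l (ENSDARG00000093135). The first had 1387 counts over all 15 libraries at a length of 7686 bp. The second had only 93 counts at 503 bp, so its FPKM and its part of the type VII sum rest on few counts. The first ran from 0.896 to 1.602 FPKM with a median of 1.28 in normal brain and from 0 to 0.299 FPKM with a median of 0.0956 in tumors, with a log2 fold change of -3.17 ± 0.52 (SE, adjusted p = 4.19e-05), and its groups did not overlap. The second, not tested over all libraries, ran from 0.614 to 1.94 FPKM with a median of 1.18 in normal brain. In tumors it ran from 0 to 0.745 FPKM with a median of 0.245, and 6 of 7 tumors lay below every normal library. It passed as lower in the reduced set, at -2.45 (adjusted p = 0.00304). The gene col7a1 was at 0.186 to 0.696 FPKM in normal brain and 0.0325 to 0.386 in tumors, with a log2 fold change of -1.57 ± 0.46 (SE, adjusted p = 0.00559). Normal brain 4, with the highest sum of skin markers, had the highest col7a1 of all 15 libraries, 0.696 FPKM, and the lowest normal value of col7a1l (ENSDARG00000069692), 0.896 FPKM.

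Types VIII and X are short chains that form hexagonal networks, type VIII in vessel walls and under the cornea, type X in cartilage that turns to bone and, in zebrafish, in bone cells as well. COL10A1 (ENSDARG00000054753) was at 0.332 to 2.204 FPKM in 7 normal libraries and 19.4 in normal brain 4. In tumors it was 0.207 FPKM in brain tumor 13, 0.327 in 8, 5.57 in 7, 19.6 in 6, 52.7 in 12, 53.7 in 5 and 78.9 in 14. The tumors thus ranged from below every normal library to above every one, and the log2 fold change was 3.28 ± 1.15 (SE, adjusted p = 0.0169). In the reduced set it was 1.33 (adjusted p = 0.222), and with libraries 1 to 8 alone 2.02 (adjusted p = 0.2704).

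The second copy, COL10A1 (ENSDARG00000101535), was at 20.8 FPKM in normal brain 4, 33.3 in brain tumor 12 and 37.1 in brain tumor 14, and did not pass, at 2.13 (adjusted p = 0.121). Without normal brain 4 it did, at 4.55 (adjusted p = 0.0015). From the cartilage and bone marker list, bglap and SP7, picked after their values were seen, were high in some of the same libraries. The summed list did not have that order among tumors, with 4202 CPM in brain tumor 6, the highest, and 2562 in brain tumor 14. The bone matrix gene bglap was at 18.1 CPM in normal brain 4, 18.6 in brain tumor 14, 12.96 in 5 and 8.43 in 12, and at 0 to 3.88 in the other 11 libraries. The bone transcription factor SP7 was at 4.95, 3.67 and 2.51 CPM in brain tumors 14, 5 and 12, 1.23 in normal brain 4 and at most 0.798 in the others. Their part in the type X result was not tested. COL8A1 ran from 0.107 to 1.13 FPKM with a median of 0.519 in normal brain and from 0.654 to 4.73 FPKM with a median of 2.02 in tumors, with a log2 fold change of 1.897 ± 0.503 (SE, adjusted p = 0.00272). It did not pass in the reduced set, at 0.49 (adjusted p = 0.472), or with libraries 1 to 8 alone, at 1.03 (adjusted p = 0.0909). COL8A2 did not pass, at 0.19 (adjusted p = 0.656), and its sign turned with median-ratio scaling, at -0.0213 (adjusted p = 0.9603).

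**Figure D4:**
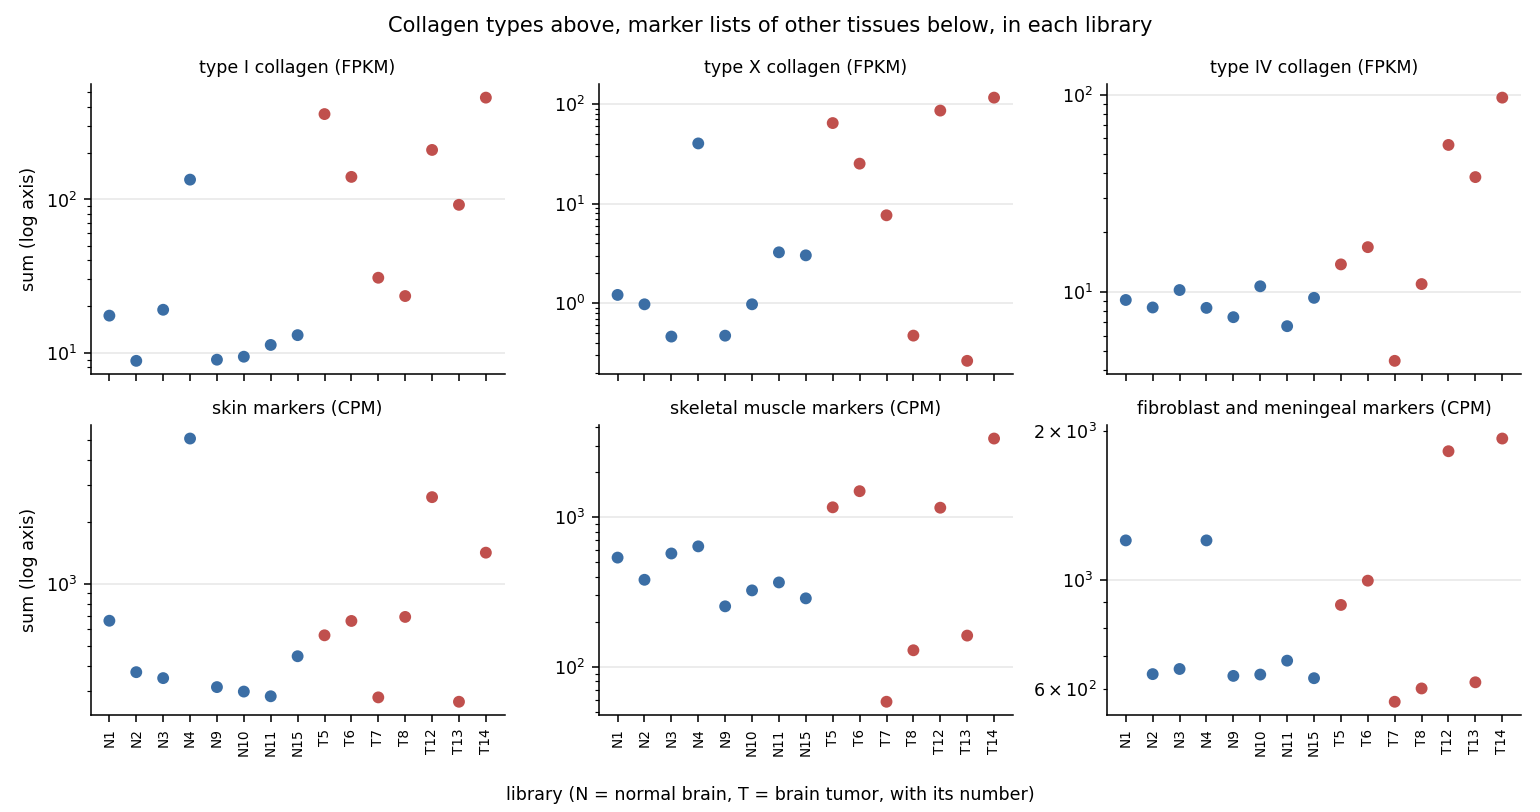
Summed FPKM of collagen types I, X and IV and summed CPM of skin, skeletal muscle and fibroblast and meningeal marker lists in every library, on log axes, with blue points for normal brain and red points for brain tumor. Normal brain 4 is high in type I, type X and skin markers but not in type IV, and brain tumor 13 is high in type IV and low in type X.

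The fibril-associated collagens, which lie on the surface of fibrils, moved in both directions. COL14A1 (ENSDARG00000005762), which binds type I fibrils, was lower in every tumor than in any normal library. By mean FPKM it was the fourth most abundant collagen of normal brain, behind the type I genes, whose normal means were raised by normal brain 4. By normal median it was above each type I gene. It ran from 6.603 to 8.57 FPKM with a median of 6.98 in normal brain and from 0.0718 to 2.07 FPKM with a median of 0.967 in tumors, with a log2 fold change of -2.802 ± 0.44 (SE, adjusted p = 2.22e-05). Its copy col14a1b ran from 0.671 to 1.84 FPKM with a median of 1.69 and from 0.00872 to 1.302 FPKM with a median of 0.496, with a log2 fold change of -1.68 ± 0.54 (SE, adjusted p = 0.00968), and brain tumor 14 alone lay inside the normal range. The gene col19a1 (ENSDARG00000076163), whose mouse counterpart is made by interneurons, ran from 1.36 to 1.95 FPKM with a median of 1.67 in normal brain and from 0.226 to 0.702 FPKM with a median of 0.5403 in tumors, with a log2 fold change of -1.55 ± 0.195 (SE, adjusted p = 2.37e-06) and no overlap between groups. Its second ID, ENSDARG00000096073, was not tested over all libraries and was at 0.359 to 0.871 FPKM in normal brain and 0 to 0.393 in tumors. That ID passed as lower in the reduced set, at -2.44 (adjusted p = 0.0137), and when any 1 tumor was left out. COL14A1 and col19a1 (ENSDARG00000076163) were thus low both in the tumors with the most type I and in those with the least.

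Type IX coats type II fibrils in cartilage, and of its 3 tested genes COL9A1 and col9a3 were higher in tumors. COL9A1 was at 0.296 to 0.8198 FPKM in 7 normal libraries, 2.54 in normal brain 1 and 1.45 to 9.03 in tumors, with a log2 fold change of 2.34 ± 0.52 (SE, adjusted p = 0.0006903). Its highest value was in brain tumor 13, where the col9a3 level of 0.428 FPKM was the lowest of all 15 libraries. The level of col9a3 was 1.79 to 6.16 FPKM in normal brain and 1.82 to 11.4 in the other 6 tumors, with a log2 fold change of 1.37 ± 0.51 (SE, adjusted p = 0.0214). It did not pass without brain tumor 14, at 1.09 (adjusted p = 0.0696), brain tumor 7, at 1.13 (adjusted p = 0.0565), normal brain 4, at 1.21 (adjusted p = 0.0529), or normal brain 11, at 1.21 (adjusted p = 0.0535). It also did not pass in the reduced set, at 1.06 (adjusted p = 0.183), or with libraries 9 to 15 alone, at 1.09 (adjusted p = 0.2897). COL9A2 just missed the threshold, at 1.296 ± 0.58 (SE, adjusted p = 0.0505), and passed without normal brain 1, at 1.97 (adjusted p = 0.000904), brain tumor 12, at 1.45 (adjusted p = 0.0331), or brain tumor 13, at 1.48 (adjusted p = 0.0215). The copy col9a1b was not tested and was at 4.42 FPKM in normal brain 1 and 3.82 in brain tumor 14, against 0 to 0.169 in the other 13 libraries, the same pair of libraries that was highest for COL2A1 (ENSDARG00000069093).

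COL12A1 (ENSDARG00000078322), of a type that bridges fibrils in tendon and muscle sheaths, ran from 0.582 to 3.53 FPKM with a median of 2.63 in normal brain and from 2.49 to 9.24 FPKM with a median of 3.71 in tumors, with a log2 fold change of 1.24 ± 0.404 (SE, adjusted p = 0.0108). It did not pass in the reduced set, at 0.79 (adjusted p = 0.192). The second copy did not pass over all libraries, at 1.21 (adjusted p = 0.0629). It passed as higher without brain tumor 13, at 1.404 (adjusted p = 0.0216), 7, at 1.38 (adjusted p = 0.0349), or 8, at 1.32 (adjusted p = 0.0303), and as lower in the reduced set, at -1.27 (adjusted p = 0.00808). The genes col16a1 and col21a1 did not pass, at -0.37 (adjusted p = 0.448) and -0.0865 (adjusted p = 0.871), and col16a1 passed as lower in the reduced set, at -1.76 (adjusted p = 0.000569). The sum of the class was 17.4 to 35.3 FPKM in normal brain and 14.6 to 42.8 in tumors, and the groups overlapped.

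The multiplexins, types XV and XVIII, sit in basement membranes, and the tail of type XVIII is released as endostatin. The copies of type XVIII differed. The scarce copy col18a1b ran from 0.121 to 0.779 FPKM with a median of 0.134 in normal brain and from 0.121 to 7.49 FPKM with a median of 0.914 in tumors, with a log2 fold change of 3.16 ± 0.76 (SE, adjusted p = 0.00128). Brain tumor 14 was the highest, and brain tumors 7 and 8 held 0.162 and 0.121 FPKM. It did not pass in the reduced set, at 1.07 (adjusted p = 0.232). The copy col18a1a did not pass, at -0.44 ± 0.32 (SE, adjusted p = 0.22), with 1.41 to 4.19 FPKM in normal brain and 0.444 to 3.82 in tumors, and passed as lower without brain tumor 14, at -0.75 (adjusted p = 0.0418). The gene col15a1b did not pass, at 1.09 ± 0.52 (SE, adjusted p = 0.0679), although brain tumor 14 was at 11.4 FPKM against 0.617 to 2.99 in the other tumors. It passed as higher without brain tumor 5, at 1.27 (adjusted p = 0.0291), 8, at 1.17 (adjusted p = 0.0429), or 13, at 1.24 (adjusted p = 0.0382).

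Of the membrane-spanning collagens, none of the 3 tested members passed. The gene col17a1b, a component of the junction between skin cells and their basement membrane, had a log2 fold change of -0.0139 ± 1.03 (SE, adjusted p = 0.991), and col23a1a and col23a1b had 0.0378 (adjusted p = 0.948) and 0.2 (adjusted p = 0.592). The level of col17a1b was 4.68 FPKM in normal brain 4, 2.11 in brain tumor 12 and 1.66 in brain tumor 14, and 0.0118 to 0.488 in the other 12 libraries. The copy col17a1a, not tested, was also highest in those 3 libraries, at 1.67, 0.538 and 0.817 FPKM. They are the 3 libraries with the highest sums of skin markers. Without normal brain 1 and 4 col17a1b passed as higher, at 2.17 (adjusted p = 0.0405). In the reduced set col23a1a passed as lower, at -1.81 (adjusted p = 0.00763), and with median-ratio scaling its sign turned, at -0.17 (adjusted p = 0.766).

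Type XXVIII, which in mice is found mainly around peripheral nerve, was scarce in all libraries. The gene col28a2a ran from 0.116 to 0.539 FPKM with a median of 0.209 in normal brain and from 0 to 0.142 FPKM with a median of 0.0385 in tumors, with a log2 fold change of -2.01 ± 0.51 (SE, adjusted p = 0.002004). Its counts were near the filter, and it was no longer tested when any 1 of normal brain 1, 2, 3, 4, 9 or 10 was left out or under a filter of 1 CPM. With libraries 9 to 15 alone it did not pass, at -1.59 (adjusted p = 0.1399). The gene col28a1b did not pass, at -0.74 ± 0.48 (SE, adjusted p = 0.172), and did pass without brain tumor 14, at -1.38 (adjusted p = 0.00956), without normal brain 4, at -0.997 (adjusted p = 0.0446), and in the reduced set, at -1.799 (adjusted p = 0.00161). The gene col28a1a, not tested, was at 0.0698 to 0.241 FPKM in normal brain and 0 to 0.0452 in tumors, with no overlap between groups.

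**Figure D5:**
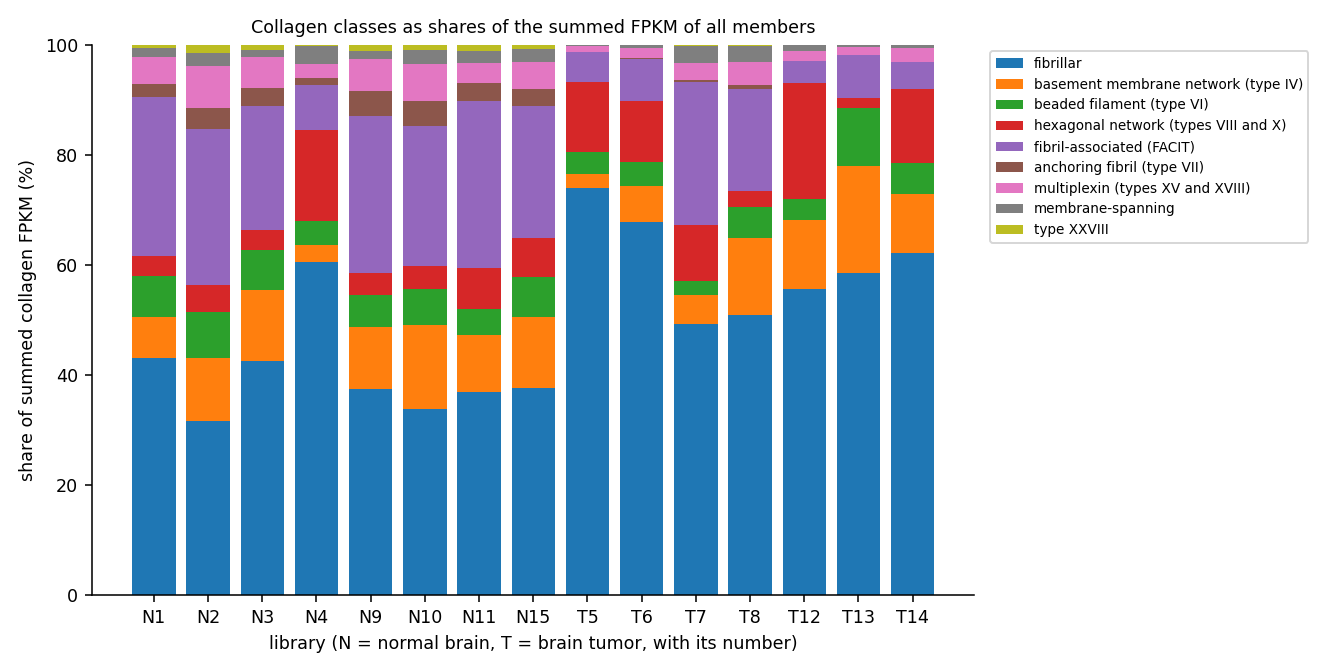
Share of the summed collagen FPKM taken by each class in every library, in percent, with normal brain left and brain tumor right. Fibrillar collagens take 31.6% to 60.4% in normal brain and 49.3% to 73.99% in tumors, and the fibril-associated share is smaller in most tumors.

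The make-up of the collagen pool differed between libraries. Fibrillar collagens took 31.6% to 43.1% of the summed FPKM in 7 normal libraries, 60.4% in normal brain 4 and 49.3% to 73.99% in tumors. Fibril-associated collagens took 22.5% to 30.3% in those 7 normal libraries and 8.18% in normal brain 4. In tumors they took 25.9% in brain tumor 7, 18.7% in brain tumor 8 and 4.02% to 7.81% in the other 5. Type IV took 19.5% in brain tumor 13, the highest of all 15 libraries, and 2.45% in brain tumor 5, the lowest.

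Fibroblast and meningeal markers summed to 632 to 685 CPM in 6 normal libraries and to 1202 in each of normal brain 1 and 4. In normal brain 1 the fibronectin gene FN1 (ENSDARG00000006526) alone gave 433 CPM, against 22.98 to 33.2 in the other normal libraries. In tumors they summed to 566, 602 and 619.5 CPM in brain tumors 7, 8 and 13, 889 and 996 in 5 and 6, and 1823 and 1934 in 12 and 14. The matrix gene POSTN (ENSDARG00000043806) gave 758 and 671 CPM of the sums in brain tumors 12 and 14. Of the 35 tested genes of that list 15 were higher, 5 were lower and 15 did not pass, with a median log2 fold change of 0.64. The shares higher and lower were 42.9% and 14.3%, against 43.5% and 33.4% of all genes. The cell matrix genes SPARC and pcolcea stand in this list and in the list of collagen processing genes. The small proteoglycan LUM, a single gene of the fibroblast and meningeal list, was at 0.121 to 2.67 CPM in 7 normal libraries and 11.5 in normal brain 4, and at 0.531 to 22.9 in tumors. No naming rule picked it, and it does not stand for the whole list. In brain tumors 7, 8 and 13 the fibroblast sum was below every normal library, while type I summed to 30.8, 23.4 and 92.2 FPKM, above every normal library but normal brain 4. That low sum rested on ptgdsb.2, at 204 to 339 CPM in normal brain and 47.96, 128 and 0.883 in those tumors, and EFEMP2 (ENSDARG00000020811), at 83.5 to 108 and 19.9, 36.6 and 5.15 CPM. Without these genes, chosen after their values were seen, the remaining list summed to 498, 438 and 614 CPM in brain tumors 7, 8 and 13. These sums were above the 294 to 346 of 6 normal libraries and below the 869.9 and 779 of normal brain 1 and 4. Because the genes left out were low in these tumors, the higher rank is not independent of that choice and does not measure fibroblast content. SPARC alone gave 228, 107 and 110 CPM of these sums, against 76.2 to 214 in normal brain. Cartilage and bone markers were 380.1 to 483 CPM in normal brain and 2179 to 4202 in tumors, a sum led by SOX9 (ENSDARG00000043923), a transcription factor that glia use as well. Markers of neural crest and Schwann cells summed to 2973 to 4174 and 6636 to 28203 CPM, of macrophages to 299 to 532 and 1604 to 3015 CPM, and of radial glia to 5930 to 6465 and 4819 to 10116 CPM.

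Genes that fold, modify, carry and crosslink collagen were mostly higher in tumors. Of 47 tested processing genes 31 were higher, 5 were lower and 11 did not pass, with a median log2 fold change of 0.91, against 43.5% higher and 33.4% lower of all genes. With libraries 1 to 8 alone 20 were higher, but the number tested and the share of all genes called in that subset are not given here. The lysyl hydroxylase PLOD3 was at 14.8 to 21.4 CPM in normal brain and 57.1 to 121 CPM in tumors, with a log2 fold change of 1.91 ± 0.16 (SE, adjusted p = 2.86e-08) and no overlap between groups. PLOD2, the lysyl hydroxylase of the chain ends, was at 2.82 to 3.797 and 8.69 to 28.7 CPM, also without overlap, with a log2 fold change of 2.23 ± 0.25 (SE, adjusted p = 6.05e-07). The coat protein gene sec23a, needed to carry collagen out of the endoplasmic reticulum, did not overlap either, at 62.1 to 80.3 and 85.6 to 220.1 CPM, and had a log2 fold change of 1.08 ± 0.15 (SE, adjusted p = 5.05e-06). PLOD1 had 2.03 ± 0.31 (SE, adjusted p = 1.88e-05) and the prolyl hydroxylase p4ha1a 1.26 ± 0.198 (SE, adjusted p = 2.44e-05). In all, 7 processing genes had every tumor above every normal library and 1 had every tumor below, which is 17.02% of those tested against 51.9% of all genes.

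Of the genes that cut or help to cut the propeptides, some were lower and some higher. The propeptide-cleaving enhancer PCOLCE2 (ENSDARG00000055575) was at 19.4 to 23.9 CPM in normal brain and 2.58 to 13.2 in tumors, with a log2 fold change of -1.62 ± 0.25 (SE, adjusted p = 1.89e-05). Its scarcer copy ENSDARG00000008450, not tested, was at 0 to 0.121 CPM in normal brain. That copy was at 17.05 CPM in brain tumor 6, 3.34 in brain tumor 7 and 0.118 to 0.363 in the other tumors. The propeptide proteases TLL1 and BMP1 (ENSDARG00000028053) had -1.49 ± 0.32 (SE, adjusted p = 0.000449) and -1.696 ± 0.66 (SE, adjusted p = 0.0274). ADAMTS14, which removes the other propeptide, had -1.11 ± 0.49 (SE, adjusted p = 0.04698). The enhancers pcolcea and pcolceb were higher, at 2.13 ± 0.55 (SE, adjusted p = 0.002095) and 3.48 ± 0.76 (SE, adjusted p = 0.000585). BMP1 (ENSDARG00000028071) and ADAMTS3 did not pass, at -0.37 ± 0.24 (SE, adjusted p = 0.168) and -0.31 ± 0.35 (SE, adjusted p = 0.431). Among crosslinking oxidases, LOXL3 (ENSDARG00000076306) was lower, at -1.29 ± 0.38 (SE, adjusted p = 0.005398). The other LOXL3 copy, ENSDARG00000039563, was higher, at 0.89 ± 0.27 (SE, adjusted p = 0.00765). LOX, LOXL1, LOXL2, loxl2a and LOXL4 were also called higher, with log2 fold changes from 1.02 for LOXL1 to 2.04 for LOX. The number of lower processing genes was 1 with libraries 9 to 15 alone, 3 without brain tumor 6 and 8 without brain tumor 14 or with median-ratio scaling. The shares of all genes called lower in these settings are not given here, so these shifts cannot be called particular to processing genes.

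Of 15 tested genes for collagen receptors and uptake 4 were higher, 3 were lower and 8 did not pass, with a median log2 fold change of 0.01. The share called was 46.7%, against 76.9% of all genes. The adhesion receptor adgrg1, which binds type III collagen in mouse brain, was at 5.76 to 7.95 CPM in normal brain and 24.2 to 86.2 in tumors, with a log2 fold change of 3.03 ± 0.21 (SE, adjusted p = 3.48e-09). The tested copies of ITGB1, the beta chain of the collagen-binding integrins, had 2.22 ± 0.23 (SE, adjusted p = 2.43e-07) for ENSDARG00000071863 and 2.04 ± 0.32 (SE, adjusted p = 2.15e-05) for ENSDARG00000053232, and the fourth was cd44b, at 1.37 ± 0.28 (SE, adjusted p = 0.000297). DDR1, a receptor kinase that collagen activates, was at 21.6 to 34.9 CPM in normal brain and 0.368 to 15.8 in tumors, with a log2 fold change of -1.79 ± 0.48 (SE, adjusted p = 0.002997). MRC2, which takes collagen up for breakdown, had -1.4 ± 0.27 (SE, adjusted p = 0.000185), and DDR2 (ENSDARG00000058695) had -0.99 ± 0.26 (SE, adjusted p = 0.00224). DDR2 (ENSDARG00000100693), the more abundant copy, and ddr2l did not pass, at 0.10 (adjusted p = 0.774) and -0.21 (adjusted p = 0.574). Of the integrin alpha chains, ITGA1, ITGA10 and both ITGA11 copies did not pass. The untested itga2.3 was at 0 to 0.266 CPM in normal brain and 0.368 to 9.66 in tumors. The groups of the 3 lower genes, DDR1, MRC2 and DDR2 (ENSDARG00000058695), did not overlap. Nor did those of adgrg1 and the tested ITGB1 copies, which makes 6 of the 15 tested, or 40.0%, against 51.9% of all genes.

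In the authors' deposited table, 20 of the 54 members were higher in tumors, 9 were lower and 25 did not pass an adjusted p of 0.05. The share of all genes called in that table is not given here. Of the 25 members called here, 24 were called there in the same direction, and col5a3a was at an adjusted p of 0.0817 in the authors' deposited table. The authors' deposited table also called COL2A1 (ENSDARG00000069093), which did not pass here, and col4a3, col7a1l (ENSDARG00000093135), col19a1 (ENSDARG00000096073) and col28a1a, which were not tested here because of low counts.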

How the data were processed

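Total RNA from whole zebrafish brain and from dissected brain tumor was selected with oligo dT and read as single reads of 50 cycles, per the labels. Novoalign 2.08.01 and DESeq2 are named in the submitters' processing notes. Which build, gene models and read counter the authors used was not given in the sources used here, so no coordinates or sequences are printed. The deposited table holds whole read counts per gene, the authors' FPKM for the same libraries, the authors' log2 fold change and their adjusted p-value, per the file headers. Dividing counts by FPKM and by the column total gave the same gene length in every library. All 32 value columns were used. No 2 libraries held identical counts. The table lists genes with a sum of at least 10 counts. Symbols came from a gene name table that matched 20915 of the 22513 IDs, and gene neighbours from RefSeq by symbol.

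Counts were tested with edgeR 4.0.16 in R 4.3.3, with limma 3.58.1 and DESeq2 1.42.0 as alternatives. Low genes were dropped with filterByExpr (minimum count 10, minimum total 15), leaving 19260 genes and removing 3253. The fit used TMM scaling and the group as its only term, with two-sided quasi-likelihood tests, Benjamini-Hochberg adjustment over all tested genes and a threshold of 0.05. Each SE is the size of the log2 fold change over the root of its F statistic. The fit was checked on simulated counts with known changes. The limit that a count of 0 allows covers counting error only. Reads shared between near-identical copies cannot be told apart from the counts. FPKM sums, shares and ratios are descriptions without a test.

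The collagen members, classes, pathway lists, marker lists and alternatives were chosen with earlier results of these data known. The rule for naming took all members of types I and IV, the most abundant member of each other class and the called members with the largest fold changes. The remaining members are named to account for every one and were described after their values were seen. From the processing list the 5 smallest p-values in each direction are named, and from the receptor list the 3 smallest, beside cd44b. Other copies and related genes of these lists are named beside them and were described after their values were seen.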

Additional observations from a re-analysis of the deposited data

Results flagged for a closer look

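In 60 groups of values, made of 1 gene or class sum in 1 of the groups of libraries, the highest or lowest library was compared with its nearest neighbour. Dixon's ratio was used at the 95% level, which chance alone passes in about 1 of 20 independent groups of normally distributed values. It passed in 19. The values are FPKM without a log, and class sums hold genes that were also compared singly, so 19 cannot be set against that rate. Normal brain 4 stood apart from the other normal libraries for COL1A1 at 42.5 FPKM, COL1A2 at 40.1, col1a1a at 52.1 and COL10A1 (ENSDARG00000054753) at 19.4. It also stood apart in the summed FPKM of the fibrillar class at 162, of types VIII and X at 43.8 and of the membrane-spanning class at 8.84. Skin markers in that library summed to 5070 CPM, and their part in these values was not tested.

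Normal brain 1 stood apart for COL9A1 at 2.54 FPKM, for col18a1b at 0.779 and for the fibril-associated class at 35.3. Normal brain 2 did so for col4a3, at only 0.0917 FPKM. Among tumors, brain tumor 12 stood apart for the neighbouring genes col4a3 at 0.881 FPKM and COL4A4 at 0.813. Brain tumor 14 stood apart for col18a1b at 7.49 FPKM and col7a1l (ENSDARG00000093135) at 0.745, and in the class sums of type VI at 50.4, type VII at 1.43, types XV and XVIII at 22.7 and type XXVIII at 0.782.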

How the results depend on the processing

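The main test called 19 collagens higher and 6 lower. With libraries 1 to 8 alone these counts were 2 and 10, with libraries 9 to 15 alone 21 and 3, and without normal brain 4 and brain tumors 5, 6, 12 and 14 (chosen after seeing the data) 9 and 17. The tumors left out in that last setting were those with the highest summed collagen FPKM. Leaving out each library in turn gave 15 to 23 higher and 5 to 11 lower, and without brain tumor 14 there were 11 lower. Processing genes, 31 higher and 5 lower, were 20 higher with libraries 1 to 8 alone. The lower ones numbered 1 with libraries 9 to 15 alone, 8 each with DESeq2, with median-ratio scaling and without normal brain 4 and brain tumors 5, 6, 12 and 14, and 3 to 8 when each library was left out. Other scalings, filters and tools, leaving out normal brain 1 and 4, or normal brain 4 and brain tumor 12, or normal brain 1, 2 and 4 and brain tumor 13, kept both collagen counts within 1.5 times. The causes were not tested, and the shares of all genes called in these settings are not given here.

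Across the 47 tested members, 1185 values under alternatives kept their direction and their side of the threshold, 57 lost the call, 50 gained it and 64 changed sign. The sign turned in at least 1 setting for 19 members, of which col5a3a alone had passed the test. The values with the sign turned follow, as log2 fold changes. Without normal brain 4 and brain tumor 12 they were -0.0585 for col4a5, 1.34 for col17a1b, 0.15 for col21a1 and -0.17 for col23a1a. Without normal brain 1, 2 and 4 and brain tumor 13 they were 0.11 for col16a1 and 2.37 for col17a1b, and without normal brain 1 and 4 2.17 for col17a1b. With libraries 1 to 8 alone they were -1.49 for COL2A1 (ENSDARG00000069093), -0.499 for col4a5, -0.0598 for col5a3a, -0.15 for col6a4a, -0.36 for COL8A2, -0.12 for COL10A1 (ENSDARG00000101535), -0.17 for col15a1b and -0.56 for col23a1a. With libraries 9 to 15 alone they were 0.18 for COL2A1 (ENSDARG00000011407), 0.29 for col4a6, 0.28 for col16a1, 2.68 for col17a1b, 0.13 for col18a1a and -0.84 for col24a1. Without normal brain 4 and brain tumors 5, 6, 12 and 14 they were -1.14 for COL2A1 (ENSDARG00000069093), -0.0304 for col4a5, -1.49 for col5a2b, -0.37 for col5a3a, -0.61 for col6a4a, -0.0895 for COL8A2, -0.22 for COL11A1, -1.27 for COL12A1 (ENSDARG00000019601), -1.81 for col23a1a and -0.11 for col24a1. Other tools and scalings turned COL8A2 to -0.02501 with DESeq2, -0.0213 with median-ratio scaling and -0.06198 with limma-voom, and col23a1a to -0.18, -0.17 and -0.49, and to -0.0194 with library size alone. They also turned col23a1b to -0.00167 with DESeq2, and col17a1b to 0.86 and col24a1 to -0.25 with limma-voom. When each library was left out the values were -0.0743 to 0.33 for col4a5, -1.03 to 2.65 for COL2A1 (ENSDARG00000069093), -0.0222 to 0.37 for COL8A2, -0.599 to 1.83 for col17a1b, -0.42 to 0.0792 for col21a1, -0.26 to 0.24 for col23a1a and -0.04502 to 0.35 for col23a1b. Class sums from TMM-scaled counts per kilobase moved by less than 1 SD, and a stricter name pattern found the same 54 members. No paired analysis was possible because the labels give the groups no shared numbers. The 7 members left untested over all libraries did not pass the filter on low counts.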
